A study of Mus musculus with 9 samples.

Results

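The comparison described here set bone marrow erythroblasts that had lost most of their Trim28 against control erythroblasts sorted through the same surface-marker gate. Its members were all genes with a completed test for the mutant group KOa against the control group FFa in the authors' deposited table, which were 10761 of the 23285 genes listed. No gene was chosen for this comparison by its behaviour. The gene lists used below, however, were chosen with earlier results of these data known. Of the other genes, 12376 were marked as not tested and 148 were marked as low data.

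FFa, the control, consisted of 3 libraries of CD71hi TER119+ immature erythroid cells of the bone marrow from C57BL/6 mice homozygous for a floxed TRIM28 allele (TRIM28 flox/flox) and without Cre. KOa consisted of 3 libraries of cells of the same gate from TRIM28 flox/flox:Mx1Cre mice, which the labels call modestly deleted, with 5 to 8% of the gene undeleted and 26% of the mRNA remaining. A further mutant group, KOb, held 3 libraries of more fully deleted CD71hi TER119-negative cells (1 to 4% undeleted, 18% of the mRNA remaining). Its values appear below only as values, since its gate differs. Per the series description, deletion was induced with 5 injections of poly(I:C) every other day, and cells were taken 2 weeks after that. The labels used here leave out whether FFa mice were injected. Mx1Cre is switched on by interferon in many cell types and is not specific to erythroid cells, and it was present in KOa and absent from FFa, so effects of Cre and of the deletion cannot be told apart.

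TRIM28 is a corepressor without a DNA-binding domain of its own. KRAB zinc finger proteins bring it to their sites, where it recruits the histone methyltransferase SETDB1, heterochromatin protein 1 and histone deacetylases, which together lay down a silent chromatin state. Erythroblasts carrying CD71, the transferrin receptor, and TER119, a surface antigen of erythroid cells, are in the phase in which they divide, fill with hemoglobin and start to remove their organelles. Expression was measured by RNA sequencing and given as FPKM, fragments per kilobase of transcript, scaled for sequencing depth, as a single value per gene and group. These values pool the 3 libraries, so no value carries an SD, the number of libraries showing a direction cannot be counted, and the depth of each library is unknown. A value after ± is the standard error of the log2 ratio of KOa over FFa, obtained by dividing the size of that ratio by that of the statistic in the authors' deposited table. A gene is said to have risen, fallen or been called where its q was below 0.05 in the authors' deposited table. Nothing in the labels ties the libraries to separate mice, so these tests measure the spread between libraries, which may be technical.

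Trim28 itself (chromosome 7, 13024152 to 13031032 of mm10) stood at 26.0 FPKM in FFa and 6.64 FPKM in KOa, which is 25.5% of the control. Its log2 ratio was -1.97 ± 0.30. Where the floxed exons lie is not stated in the labels, so reads from the part of the gene that remains cannot be set apart. The defining erythroid markers were strongly expressed in both groups: 9 of the 11 chosen were found in the table, none was at 0, and their summed level was 5625 FPKM in FFa and 4602 FPKM in KOa. Markers of other blood cells were present as well. The 10 B cell markers were all called lower, and their sum was 240.1 FPKM in FFa and 22.4 FPKM in KOa. Of 13 granulocyte markers, 6 were called lower and 2 higher (Mpo and Ctsg). Their sum of 49306 FPKM in FFa and 16827 FPKM in KOa was mostly that of S100a8, which stood at 34935 and 14822 FPKM without a call (q of 0.106), and of S100a9, which fell from 10284 to 278 FPKM. Globin genes held 64.6% of the FPKM sum in FFa and 76.3% in KOa, and small RNA genes 10.6% and 4.40%. In bulk samples of this kind fewer cells of a type and less RNA per cell cannot be told apart.

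In KOa 860 genes were higher, which is 7.99% of those tested, and 1516 were lower, which is 14.1%. Of these, 364 rose and 786 fell at least 2-fold. The smallest called change was a log2 ratio of 0.44 in size, the median called rise was 0.87 and the median called fall was -1.02. Over all tested genes the median log2 ratio was -0.08, with quartiles of -0.46 and 0.26 and a median standard error of 0.39. Most genes therefore lay close to 0, and the called genes formed both flanks of the distribution. The scale matters for direction: with FPKM divided by the sum outside globin genes every log2 ratio is higher by 0.54, and with small RNA genes left out of that sum as well it is higher by 0.32. Read as a standard normal score, the deposited statistic gave 280 higher and 555 lower genes (33.5% of calls higher, against 36.2% as deposited), and the same reading after rescaling outside globin genes gave 1431 and 229 (86.2% higher). That shift rests on globin values with wide errors, none of which was called among the 3 of highest level: Hbb-b2 stood at 37796 and 237717 FPKM (2.65 ± 2.58, q of 0.320), Beta-s at 565663 and 715226 FPKM (0.34 ± 1.98) and the joint entry Hbb-b1,Hbb-b2 at 188597 and 12883 FPKM (-3.87 ± 5.13). Globin genes are near-identical, and how reads were divided between them is uncertain. A negative log2 ratio or list median smaller than 0.54 in size therefore becomes positive on that scale, while the distance of a list from the other genes stays the same. The median of each list below is to be read against -0.08, the median of all tested genes. Where a list median is scaled outside globin genes, it is to be read against 0.46, the median of all tested genes on that scale. The percentages in brackets after a list's counts are the shares of its tested members called higher and then lower, to be read against 7.99% and 14.1%, and no list was tested against the other genes.

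**Figure D1:**
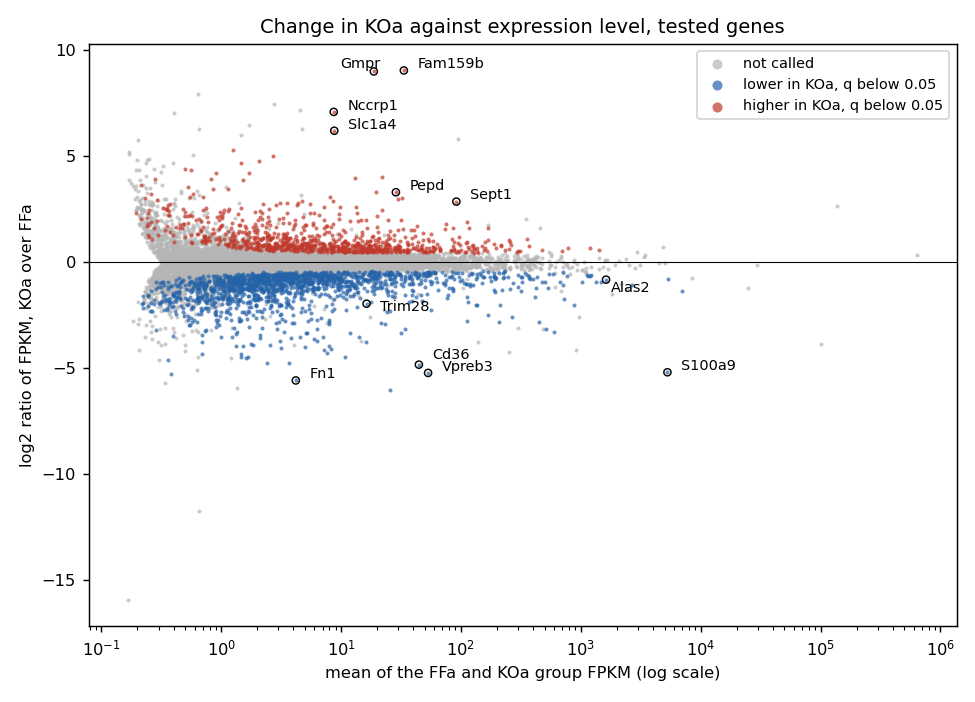
Each point is a tested gene with an FPKM above 0 in both groups, with the mean of its FFa and KOa FPKM on a log scale (x axis) and its log2 ratio of KOa over FFa (y axis). Red marks the genes higher and blue the genes lower in KOa at q below 0.05, and grey the rest. Trim28 lies at -1.97, S100a9 at -5.21 among genes of very high level, and Gmpr and Fam159b lie above all other called genes.

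Called genes were spread over the whole range of expression. Among 2526 genes with a mean of 5 to 20 FPKM, 10.2% were higher and 12.99% lower, and among 1151 genes with 20 to 100 FPKM, 12.9% were higher and 13.6% lower. In the 427 genes of 100 FPKM or more, 10.3% were higher and 21.3% lower. Below 0.5 FPKM the shares were 5.19% and 6.36% of 1367 genes, with a median standard error of 0.93, so that small changes were not detectable there. Of the called rises, 34 were listed at 0 FPKM in FFa, 29 of them below 1 FPKM in KOa, and 6 called falls were listed at 0 in KOa. No fold is given for these.

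A group of 6 genes was nearly silent in FFa, below 0.5 FPKM, and reached at least 5 FPKM in KOa. Fam159b went from 0.126 to 66.7 FPKM. Gmpr, which encodes the guanosine monophosphate reductase that returns GMP to IMP, went from 0.0731 to 37.4 FPKM. Slc1a4, a sodium-dependent carrier of alanine, serine and cysteine, went from 0.236 to 17.3 FPKM. In these 3 genes the log2 ratios were 9.05 ± 1.14, 9.0 ± 1.33 and 6.20 ± 0.63, and the wide errors of Fam159b and Gmpr come with FFa values close to 0. Their q in the authors' deposited table was 0.0146 and 0.0370, against 0.000619 for Slc1a4. The size of a ratio against its error therefore does not rank genes as q does.

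Nccrp1, which encodes an F-box-associated protein, went from 0.127 to 17.2 FPKM (7.09 ± 1.15). Bambi, a pseudoreceptor that dampens TGF-beta signalling, went from 0.162 to 5.25 FPKM (5.02 ± 0.68). Gchfr, the feedback regulator of the first enzyme of tetrahydrobiopterin synthesis, was listed at 0 in FFa and at 8.75 FPKM in KOa. In the more fully deleted group KOb these genes were expressed as well: Fam159b stood at 29.5, Gmpr at 32.2, Slc1a4 at 13.7, Nccrp1 at 9.41 and Bambi at 5.12 FPKM. Both mutant groups are set against the same control libraries, so their values are not separate evidence.

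Promoters of 4 of the 6 genes were found by symbol in RefSeq's table for GRCm38.p6 (mm10), and the 250 bases before the start site of Gmpr (chr13:45507194-45507443, plus strand) and Slc1a4 (chr11:20332714-20332963, minus strand) are shown because these genes went from near silence to a clear level.
Gmpr: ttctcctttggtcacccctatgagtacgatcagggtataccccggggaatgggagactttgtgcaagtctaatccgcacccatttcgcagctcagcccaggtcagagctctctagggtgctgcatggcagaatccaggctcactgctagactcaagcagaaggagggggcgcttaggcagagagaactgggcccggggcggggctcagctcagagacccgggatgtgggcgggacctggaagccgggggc
Slc1a4: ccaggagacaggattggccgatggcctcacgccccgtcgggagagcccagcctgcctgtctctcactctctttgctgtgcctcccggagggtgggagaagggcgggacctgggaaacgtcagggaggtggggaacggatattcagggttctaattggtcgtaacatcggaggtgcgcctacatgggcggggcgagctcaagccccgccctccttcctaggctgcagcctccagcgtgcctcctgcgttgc
Neither holds capitals because no searched word was found. The GATA-type word AGATAA and the E-box CANNTG, searched on both strands, were in 0 of these 4 promoters, while 11.4% and 69.3% of the promoters of 27025 genes held them.

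The reverse change, from at least 5 FPKM to below 0.5, was found in 4 genes. Fn1, which encodes the matrix protein fibronectin, went from 8.21 to 0.170 FPKM (-5.60 ± 0.54). Spib, an Ets-family transcription factor of B cells and plasmacytoid dendritic cells, went from 7.12 to 0.264 FPKM (-4.75 ± 0.70). Atp1b1, the beta subunit of the sodium pump, went from 5.93 to 0.353 FPKM, and Akap7, an anchoring protein for protein kinase A, from 5.79 to 0.442 FPKM. Spib is a gene of cell types whose other markers fell in KOa, and the part of such cells in these results was not tested.

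Among genes that were already expressed in the control, several rises were large against their error. Pepd, the dipeptidase that splits proline-containing dipeptides, went from 5.31 to 52.01 FPKM (3.29 ± 0.30). Sept1, a septin of the cytoskeleton, went from 22.3 to 161 FPKM (2.85 ± 0.27). Srxn1, sulfiredoxin, which repairs oxidised peroxiredoxins, went from 6.74 to 37.4 FPKM (2.47 ± 0.29). The transcript 1700097N02Rik went from 1.58 to 24.4 FPKM (3.96 ± 0.48). Each of these 4 had the smallest q of the authors' deposited table, 0.000619, which 947 called genes shared. Best determined among the falls were S100a9, a calprotectin subunit of neutrophils (-5.21 ± 0.21), and Rmrp, the RNA of the RNase MRP complex, which went from 1124 to 329 FPKM (-1.77 ± 0.11). Rmrp was not counted among the small RNA genes, whose share of the FPKM sum was 10.6% in FFa and 4.40% in KOa. Whether its fall is part of that difference was not tested. Cd36, a scavenger receptor that takes up fatty acids, went from 86.2 to 2.99 FPKM (-4.85 ± 0.34).

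**Figure D2:**
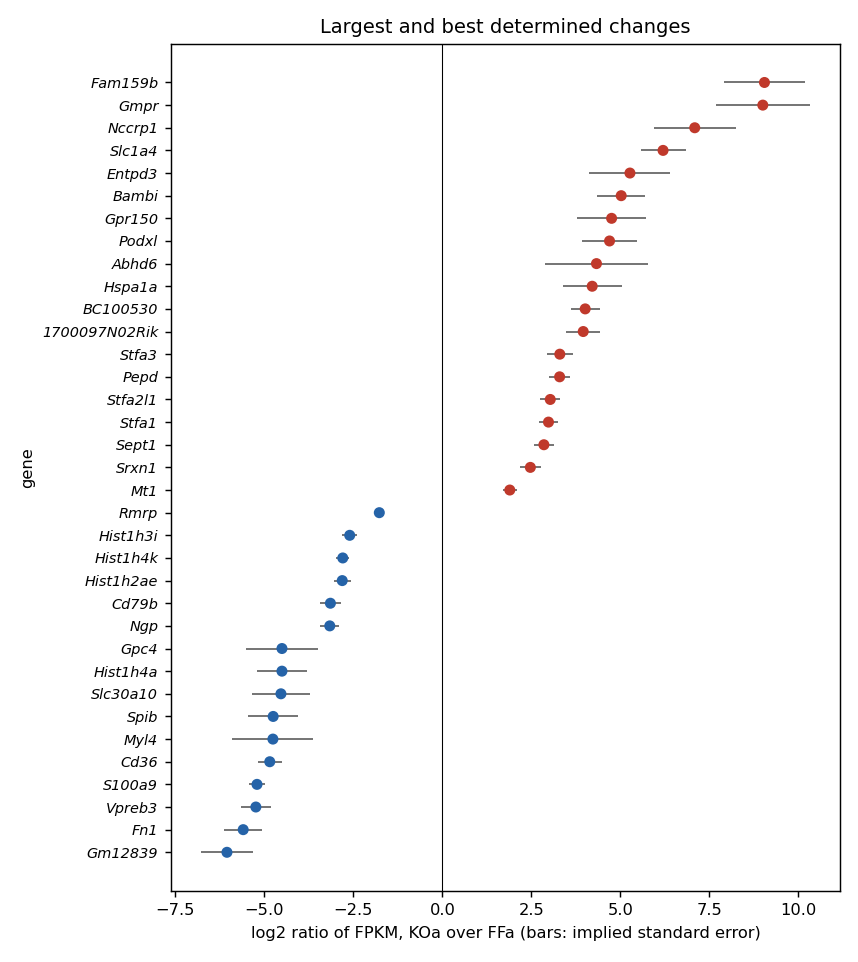
Log2 ratio of FPKM, KOa over FFa (x axis), for the 10 largest and the 10 best determined rises and falls, with the implied standard error as bars, red for rises and blue for falls. Fam159b and Gmpr at the top carry errors above 1, and Pepd, Sept1, Srxn1 and Mt1 carry errors of about 0.30 or less.

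Of 16 erythroid identity markers, 0 were higher and 1 lower, which is 0% and 6.25% against 7.99% and 14.1% of all tested genes, and the median log2 ratio was 0.00. Their summed level was 49522 FPKM in FFa and 248255 FPKM in KOa, which was mostly that of Hbb-b2, a beta-globin gene, at 37796 and 237717 FPKM (2.65 ± 2.58), without a call. Slc4a1, the anion exchanger of the red cell membrane, stood at 867 FPKM in FFa and 714 FPKM in KOa (-0.28 ± 0.41). Epor, the erythropoietin receptor, stood at 40.0 and 42.6 FPKM (0.09 ± 0.27) and Gata1, the master factor of the lineage, at 118 and 138 FPKM (0.23 ± 0.27). None of the latter 3 was called, and the errors leave room for changes of about their own size. Alas2, the first enzyme of heme synthesis in erythroid cells, went from 2082 to 1167 FPKM and was the called member (-0.84 ± 0.40).

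Single genes of heme synthesis, iron handling and the membrane moved in either direction. Of 32 heme and iron genes, 3 rose and 3 fell (9.38% and 9.38%, median -0.16, which is 0.38 when scaled outside globin genes). Cpox, the coproporphyrinogen oxidase of heme synthesis, rose from 164 to 341 FPKM (1.06 ± 0.31), and Fam132b, the iron-regulating hormone erythroferrone, rose from 1.42 to 9.63 FPKM (2.76 ± 0.37). Tmem14c, a mitochondrial porphyrin carrier, fell from 399.6 to 244 FPKM (-0.71 ± 0.24). Slc25a37, mitoferrin, which brings iron into mitochondria, was not called at 725 and 499 FPKM (q of 0.0767).

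Of 36 red cell membrane and blood group genes, 2 rose and 6 fell (5.56% and 16.7%, median 0.00). Car1, an abundant carbonic anhydrase of red cells, fell from 220.5 to 53.9 FPKM (-2.03 ± 0.30), and Spnb1, beta-spectrin of the membrane skeleton, from 77.3 to 27.5 FPKM (-1.49 ± 0.31). Kcnn4, the calcium-gated potassium channel of red cells, fell from 98.3 to 49.3 FPKM (-0.99 ± 0.29), and Aqp1, a water channel, from 244 to 145 FPKM (-0.76 ± 0.29). Cd59a, an inhibitor of complement lysis, rose from 20.1 to 57.1 FPKM (1.51 ± 0.30). Slc30a10, a manganese exporter, fell from 3.07 to 0.132 FPKM (-4.54 ± 0.81).

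Erythroid transcription factor genes gave 5 rises and 4 falls of 34 (14.7% and 11.8%, median 0.04). Cbfa2t3, the corepressor ETO2 that works with GATA1 and TAL1, rose from 3.49 to 11.4 FPKM (1.71 ± 0.31). Bach1, a heme-sensing repressor, rose from 2.02 to 3.66 FPKM (0.86 ± 0.33), while Bach2, its relative known from B cells, fell from 1.84 to 0.157 FPKM (-3.55 ± 0.59). Klf3 rose from 76.7 to 111 FPKM (0.53 ± 0.27). Myb, a factor of dividing progenitors, fell from 7.48 to 3.61 FPKM (-1.05 ± 0.33), and Myc fell from 12.8 to 6.20 FPKM (-1.05 ± 0.32). Of 17 early progenitor genes, which include Myb, Myc and Kit, 3 rose and 4 fell (17.6% and 23.5%, median 0.04), and Lmo4, a LIM-domain factor, fell from 7.59 to 2.24 FPKM (-1.76 ± 0.46). In KOb Myb and Myc stood at 8.57 and 13.5 FPKM, which lies near the control. Of 41 genes of late erythroblast clearance and ubiquitin conjugation, 4 rose and 6 fell (9.76% and 14.6%, median -0.26, which is 0.27 when scaled outside globin genes). The mitophagy receptor gene Optn rose from 33.7 to 71.9 FPKM (1.09 ± 0.27), and Ube2l6, a conjugating enzyme for ISG15, fell from 362 to 184 FPKM (-0.97 ± 0.26).

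**Figure D3:**
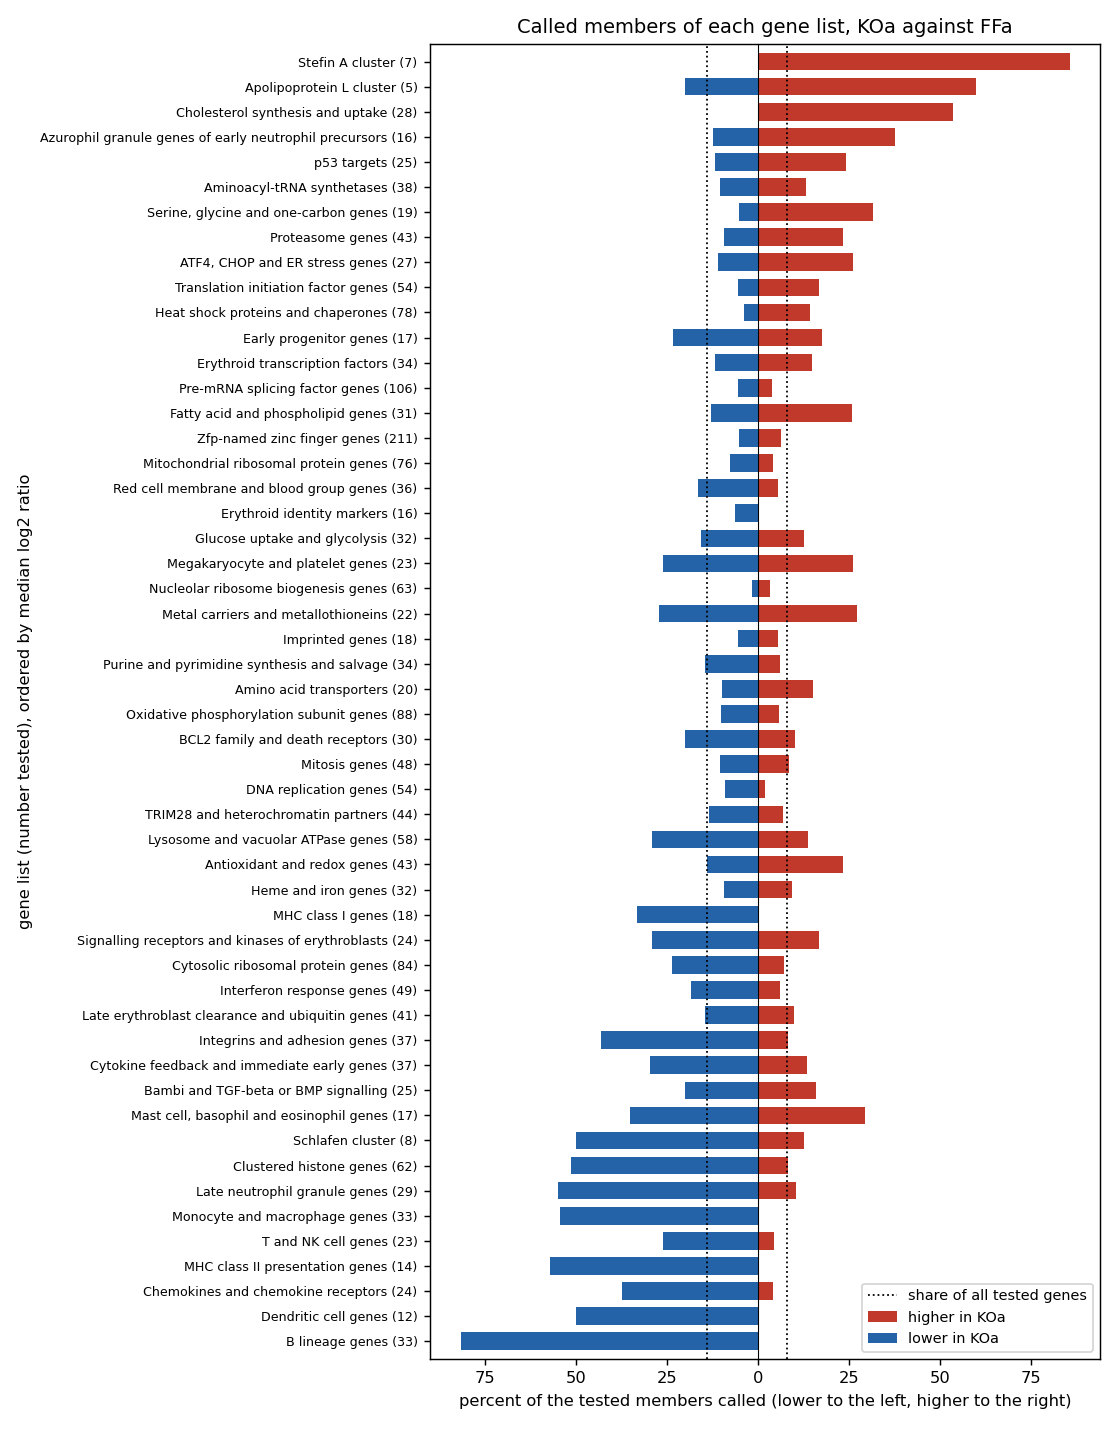
Share of the tested members of each of 52 gene lists called higher (red, to the right) or lower (blue, to the left) in KOa, in percent, ordered by the median log2 ratio, with the number tested in brackets. Dotted lines mark the shares over all tested genes, 7.99% and 14.1%. Stefin A, apolipoprotein L and cholesterol genes are at the top and B lineage genes at the bottom.

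Genes of cholesterol synthesis and uptake rose together. Of 28 tested, 15 rose and 0 fell, which is 53.6% against 7.99% of all tested genes, and the median log2 ratio was 0.58 against -0.08. These genes encode the enzymes that build sterols from acetyl-CoA and the proteins that import them, and SREBP transcription factors are known to drive them together when membranes run short of sterol. Summed over the list, the level was 60.8 FPKM in FFa and 101 FPKM in KOa.

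The rises were spread along the pathway. Early in it, the mevalonate pathway gene Pmvk rose from 12.7 to 20.8 FPKM (0.71 ± 0.34). Further on, Fdps, which makes farnesyl diphosphate, rose from 5.48 to 13.7 FPKM (1.32 ± 0.37), and Sqle, squalene epoxidase, from 1.63 to 3.51 FPKM (1.11 ± 0.39). Lss, the synthase that closes the sterol rings, rose from 0.492 to 1.27 FPKM (1.36 ± 0.58), and Cyp51, a demethylase of lanosterol, from 0.770 to 1.82 FPKM (1.24 ± 0.43). For transport, Npc1, which exports cholesterol from lysosomes, rose from 3.58 to 7.44 FPKM (1.05 ± 0.54). Srebf1, the gene of SREBP1, rose from 1.04 to 2.97 FPKM (1.51 ± 0.58).

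Not every member moved. Srebf2, the gene of the main cholesterol-regulating SREBP, stood at 3.94 and 5.14 FPKM (0.38 ± 0.32, q of 0.126), Insig1, its retention protein, at 1.94 and 2.61 FPKM (0.43 ± 0.39), and Hmgcs1 at 1.23 and 1.21 FPKM. Most members were expressed at only a few FPKM, and those with the highest levels, Pmvk and Fdps, were among the called. The sterol regulatory word TCACNCCAC, chosen after the values were seen and searched on both strands of the 250 bases before each start, was in 0 of the 8 called members with a RefSeq promoter, in 1 of the 11 others (Hmgcs1) and in 1.22% of all promoters.

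**Figure D4:**
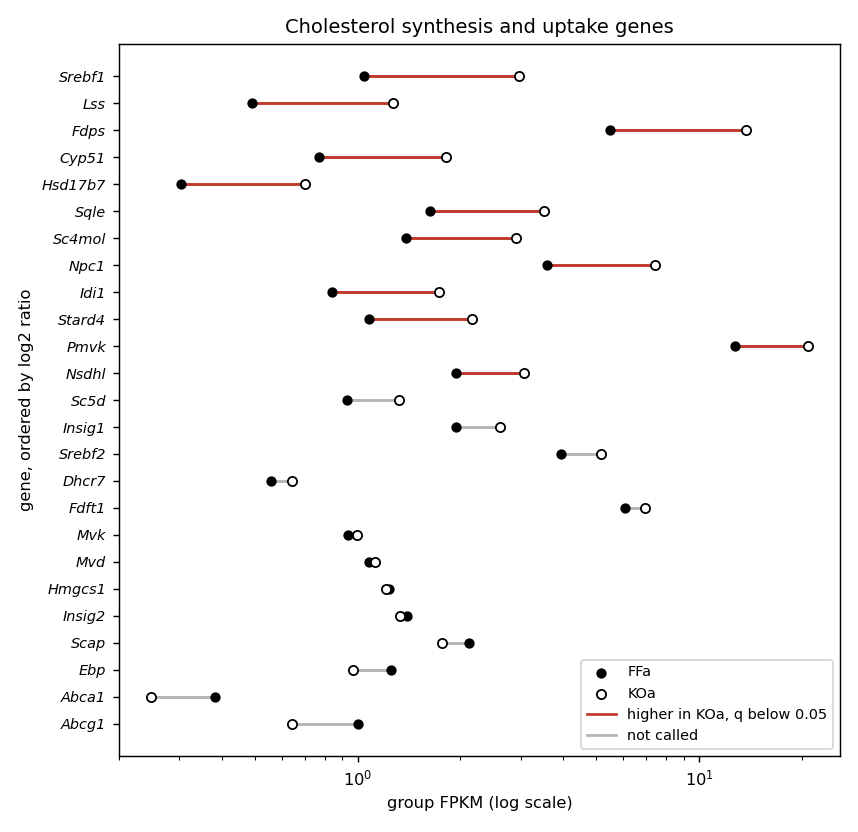
FPKM on a log scale (x axis) of 25 of the 28 tested cholesterol genes, ordered by log2 ratio, in FFa (filled) and KOa (open). A red line marks the 12 genes shown that rose and a grey line those not called, and the open symbol lies to the right of the filled one in every red pair, from Nsdhl to Srebf1.

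Fatty acid and phospholipid genes showed no such common direction: 8 rose and 4 fell of 31 (25.8% and 12.9%, median 0.02). Besides Cd36, Scd1, the stearoyl-CoA desaturase, fell from 5.31 to 0.732 FPKM (-2.86 ± 0.40), while its relative Scd2 rose from 2.02 to 3.59 FPKM (0.83 ± 0.34). Acsl1, which activates long-chain fatty acids, fell from 59.6 to 28.9 FPKM (-1.04 ± 0.28). Abhd6, a monoacylglycerol lipase, rose from 0.0530 to 1.06 FPKM (4.33 ± 1.45), and Fabp5, a fatty acid carrier, from 0.602 to 2.40 FPKM (2.0 ± 0.77).

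In amino acid metabolism, genes that make serine, glycine and folate-bound carbon units were listed together with Aldh18a1 and Asns. Of 19 tested, 6 rose and 1 fell (31.6% and 5.26%, median 0.14). Mthfd2, the mitochondrial folate dehydrogenase, rose from 15.98 to 34.9 FPKM (1.13 ± 0.28), and Shmt2, which splits serine into glycine in mitochondria, from 17.2 to 31.3 FPKM (0.86 ± 0.30). Aldh18a1, the first enzyme of proline synthesis, rose from 3.43 to 5.89 FPKM (0.78 ± 0.34). Asns, asparagine synthetase, went the other way, from 16.8 to 7.04 FPKM (-1.26 ± 0.30). Of 20 amino acid transporters, 3 rose and 2 fell (15% and 10%, median -0.06), so the large change of Slc1a4 was not shared by the group. Slc38a5, a glutamine and glycine carrier, fell from 44.0 to 24.7 FPKM (-0.84 ± 0.27), and Slc7a5, the leucine exchanger, stood at 60.8 and 56.8 FPKM without a call.

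Nucleotide and sugar metabolism gave single calls in both directions. Of 34 purine and pyrimidine genes, 2 rose, Gmpr and Prps1, and 5 fell (5.88% and 14.7%, median -0.06). Prps1, which makes the ribose phosphate donor of nucleotides, rose from 8.14 to 14.7 FPKM (0.85 ± 0.30). Impdh1, the dehydrogenase that takes IMP towards GMP and so runs opposite to GMPR, fell from 1.16 to 0.355 FPKM (-1.71 ± 0.71), and Xdh, xanthine dehydrogenase, from 2.05 to 0.765 FPKM (-1.43 ± 0.42). Of 32 glucose genes, 4 rose and 5 fell (12.5% and 15.6%, median -0.01). Slc2a1, the glucose transporter GLUT1, rose from 0.392 to 1.63 FPKM (2.06 ± 0.65), Pfkp, a phosphofructokinase, from 3.9 to 13.3 FPKM (1.77 ± 0.63), and Pklr, the pyruvate kinase of liver and red cells, from 4.81 to 8.96 FPKM (0.90 ± 0.34). Bpgm, which makes the bisphosphoglycerate that tunes oxygen binding, fell from 1926 to 1015 FPKM (-0.92 ± 0.36).

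Of 78 heat shock proteins and chaperones, 11 rose and 3 fell (14.1% and 3.85%, median 0.07). The inducible HSP70 genes had the largest changes: Hspa1a went from 0.175 to 3.24 FPKM (4.21 ± 0.83) and Hspa1b from 0.192 to 2.83 FPKM (3.88 ± 0.80). Both genes are nearly identical, and how reads were divided between them is uncertain. Of the abundant members, Hspa8, the constitutive HSP70, rose from 70.0 to 107 FPKM (0.61 ± 0.27), Hspe1, a mitochondrial chaperonin, from 48.3 to 73.8 FPKM (0.61 ± 0.23), and the cochaperone gene Bag1 from 57.9 to 176 FPKM (1.61 ± 0.26). Bag3, which pairs with HSP70 in selective autophagy, rose from 2.02 to 4.18 FPKM (1.05 ± 0.37). Dnajb1, the usual HSP40 partner, stood at 53.3 and 61.1 FPKM and was not called.

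The promoters of Hspa1a (chr17:34972157-34972406) and Hspa1b (chr17:34959239-34959488), both on the minus strand, are shown because the pair rose together from near silence and is known for its heat shock elements. Capitals mark the word GAANNTTC, which reads the same on both strands and was chosen after the values were seen.
Hspa1a: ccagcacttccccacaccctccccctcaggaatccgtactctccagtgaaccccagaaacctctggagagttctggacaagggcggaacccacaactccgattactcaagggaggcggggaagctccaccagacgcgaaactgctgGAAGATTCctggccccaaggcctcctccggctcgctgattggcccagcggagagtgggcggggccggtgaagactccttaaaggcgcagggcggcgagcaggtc
Hspa1b: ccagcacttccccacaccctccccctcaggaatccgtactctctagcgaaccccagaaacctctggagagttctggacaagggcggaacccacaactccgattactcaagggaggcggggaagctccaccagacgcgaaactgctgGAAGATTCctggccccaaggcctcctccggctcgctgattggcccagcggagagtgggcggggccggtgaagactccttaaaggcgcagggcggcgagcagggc
The match begins 104 bases before the start site in each. Of 10 heat shock genes that rose and had a promoter in the table, 4 held the word (Dnaja4, Hspa1a, Hspa1b and Hspe1), against 7.73% of all promoters. The windows of Hspa1a and Hspa1b are nearly identical, so their matches are not separate. Heat shock genes that were not called were not searched, so the count cannot be tied to the rise.

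Of 27 genes of the ATF4, CHOP and ER stress response, 7 rose and 3 fell (25.9% and 11.1%, median 0.09). Chac1, which degrades glutathione, rose from 0.757 to 4.95 FPKM (2.71 ± 0.56), Trib3, a pseudokinase target of CHOP, from 0.153 to 1.27 FPKM (3.06 ± 1.04), and Nupr1, a small stress-induced chromatin protein, from 1.67 to 6.54 FPKM (1.97 ± 0.53). Atf4 itself stood at 128 and 172 FPKM and was not called (0.43 ± 0.27, q of 0.0566). Edem1, which sends misfolded proteins to degradation, fell from 2.98 to 1.31 FPKM (-1.19 ± 0.35). Asns, which this list holds as well, fell from 16.8 to 7.04 FPKM (-1.26 ± 0.30).

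Of 25 p53 targets, 6 rose and 3 fell (24% and 12%, median 0.25). Cdkn1a, the cell cycle inhibitor p21, rose from 1.147 to 8.38 FPKM (2.87 ± 0.50), Bbc3, the death-promoting protein PUMA, from 6.00 to 13.9 FPKM (1.22 ± 0.30), and Ccng1, cyclin G1, from 4.1 to 10.2 FPKM (1.32 ± 0.31). Trp53inp1 rose from 2.07 to 4.45 FPKM (1.1 ± 0.35). Bax stood at 10.1 and 12.8 FPKM without a call. The death receptor gene Fas fell from 1.72 to 0.492 FPKM (-1.81 ± 0.97). In the wider list of 30 BCL2 family and death receptor genes, 3 rose and 6 fell (10% and 20%, median -0.11, which is 0.42 when scaled outside globin genes). Bcl2l11, the death-promoting BIM, fell from 1.68 to 0.669 FPKM (-1.33 ± 0.45), and Bcl2l1, the survival factor BCL-XL of erythroblasts, stood at 116 and 94.9 FPKM without a call (q of 0.226).

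Of 43 antioxidant genes, 10 rose and 6 fell (23.3% and 13.95%, median -0.16, which is 0.38 when scaled outside globin genes). Srxn1 rose most. Gss, glutathione synthetase, rose from 2.70 to 8.91 FPKM (1.72 ± 0.35), Txnrd1, thioredoxin reductase, from 16.1 to 30.3 FPKM (0.92 ± 0.28) and Prdx6 from 11.3 to 20.3 FPKM (0.84 ± 0.28). Against these, Prdx5 fell from 12.1 to 2.89 FPKM (-2.07 ± 0.42) and Mgst3, a microsomal glutathione transferase, from 478 to 274 FPKM (-0.80 ± 0.21). The most abundant members, Gpx1 at 4560 and 4355 FPKM and Prdx2 at 1660 and 1406 FPKM, were not called.

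Metal genes split by direction, with 6 of 22 higher and 6 lower (27.3% and 27.3%, median -0.04). The metallothioneins, which bind zinc and copper, rose: Mt1 from 47.4 to 176 FPKM (1.89 ± 0.20) and Mt2 from 16.5 to 48.9 FPKM (1.56 ± 0.24). Mtf1, the zinc-sensing factor that activates them, rose from 3.11 to 4.99 FPKM (0.68 ± 0.31). The zinc carriers Slc39a8, which imports, and Slc30a1, which exports, rose from 4.89 to 18.996 FPKM (1.96 ± 0.32) and from 3.03 to 5.26 FPKM (0.80 ± 0.34). Slc30a9 fell from 28.0 to 7.49 FPKM (-1.90 ± 0.29). The promoter of Mt2 (chr8:94172368-94172617, plus strand) is shown because the metallothioneins rose together and are known for repeated metal response elements. Capitals mark the core TGCNCNC on either strand, chosen after the values were seen.
Mt2: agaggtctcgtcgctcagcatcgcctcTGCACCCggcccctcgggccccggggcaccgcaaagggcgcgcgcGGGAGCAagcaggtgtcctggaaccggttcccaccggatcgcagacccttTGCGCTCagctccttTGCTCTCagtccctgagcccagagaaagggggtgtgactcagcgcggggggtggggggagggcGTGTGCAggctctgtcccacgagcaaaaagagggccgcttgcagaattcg
This window held 5 matches. The core is short and was in the promoters of 5 of the 6 metal genes that rose (Mt1, Mt2, Slc30a1, Slc39a8 and Atp7a), but also in 47.2% of all promoters.

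Signalling genes of erythroblasts gave 4 rises and 7 falls of 24 (16.7% and 29.2%, median -0.23, which is 0.31 when scaled outside globin genes). Ptpn6, the phosphatase SHP-1 that quenches cytokine receptors, fell from 13.3 to 3.36 FPKM (-1.99 ± 0.36). Among adaptors, Gab1 fell from 2.97 to 0.868 FPKM (-1.77 ± 0.39) and its paralog Gab2 rose from 0.917 to 2.28 FPKM (1.31 ± 0.38). Lyn, a Src-family kinase, fell from 2.54 to 0.845 FPKM (-1.59 ± 0.45), and Kit, the stem cell factor receptor, rose from 0.399 to 0.751 FPKM (0.91 ± 0.54). Jak2, the kinase of the erythropoietin receptor, stood at 7.77 and 6.07 FPKM without a call (q of 0.152).

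Cytokine feedback genes and immediate early genes gave 5 rises and 11 falls of 37 (13.5% and 29.7%, median -0.33, which is 0.21 when scaled outside globin genes), and the rises included 3 inhibitors that STAT5 induces. Cish rose from 2.04 to 15.2 FPKM (2.90 ± 0.36), Socs2 from 0.179 to 0.814 FPKM (2.19 ± 1.07) and Socs3 from 0.254 to 1.04 FPKM (2.04 ± 0.76). Pim1, another STAT5 target, stood at 29.98 and 38.8 FPKM and was not called (q of 0.102). The falls were mostly immediate early factors and feedback phosphatases of the MAP kinase pathway. Dusp2 fell from 3.92 to 0.451 FPKM (-3.12 ± 0.70), Dusp6 from 3.03 to 0.991 FPKM (-1.61 ± 0.44), Klf2 from 12.3 to 3.97 FPKM (-1.63 ± 0.33), Jun from 2.92 to 1.24 FPKM (-1.24 ± 0.41) and Fos from 3.75 to 1.88 FPKM (-0.99 ± 0.41). Several of these are abundant in leukocytes as well, and their part in the result was not tested. Of leukocyte genes, all 10 B cell markers fell in KOa, while azurophil granule genes rose in 6 and fell in 2 of 16.

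The TGF-beta and BMP genes around Bambi gave 4 rises and 5 falls of 25 (16% and 20%, median -0.34, which is 0.19 when scaled outside globin genes). Id3, a target of BMP signalling, fell from 6.80 to 0.927 FPKM (-2.87 ± 0.61), and Acvrl1, a receptor of the family, from 1.38 to 0.340 FPKM (-2.02 ± 0.60). Tgfb1, the ligand, fell from 7.93 to 4.97 FPKM (-0.67 ± 0.32). Tgfbr3, a coreceptor, rose from 0.478 to 1.1 FPKM (1.20 ± 0.45).

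Among integrins and adhesion genes 3 rose and 16 of 37 fell, which is 43.2% against 14.1% of all tested genes (median -0.29, which is 0.24 when scaled outside globin genes). Besides Fn1, Gpc4, a glypican, fell from 2.79 to 0.123 FPKM (-4.51 ± 1.02), and Selplg, a selectin ligand, from 16.5 to 7.90 FPKM (-1.06 ± 0.29). Many of these genes are also expressed by leukocytes, and their part in this count was not tested. Leukocyte markers were lower in KOa for some cell types but not for all. Podxl, an anti-adhesive sialomucin of progenitors and vessels, rose from 0.110 to 2.84 FPKM (4.69 ± 0.78), and stood at 7.05 FPKM in KOb.

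Of the genes of protein synthesis, cytosolic ribosomal proteins fell in 20 and rose in 6 of 84 (7.14% and 23.8%, median -0.23, which is 0.30 when scaled outside globin genes). Rps14 fell from 283 to 104 FPKM (-1.44 ± 0.21), Rps23 from 361 to 149 FPKM (-1.28 ± 0.20) and Rpl39 from 1750 to 923 FPKM (-0.92 ± 0.28), while Rps19 rose from 136 to 245 FPKM (0.85 ± 0.20) and Rpl11 from 575 to 812 FPKM (0.50 ± 0.20). Ribosomal protein genes have many near-identical pseudogenes that can take reads, so single members are uncertain. Translation initiation factors rose in 9 and fell in 3 of 54 (16.7% and 5.56%, median 0.07), with 3 subunit genes of eIF2 among the rises: Eif2s1 went from 4.59 to 6.78 FPKM (0.57 ± 0.32), Eif2s2 from 14.7 to 22.1 FPKM (0.59 ± 0.29) and Eif2s3x from 4.57 to 6.68 FPKM (0.55 ± 0.31). Aminoacyl-tRNA synthetases rose in 5 and fell in 4 of 38 (13.2% and 10.5%, median 0.15), with Tars going from 5.21 to 8.56 FPKM (0.72 ± 0.31) and Hars from 35.4 to 17.1 FPKM (-1.05 ± 0.28). Nucleolar genes of ribosome assembly were called in 3 of 63, of which 2 rose and 1 fell (3.17% and 1.59%, median -0.02).

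Mitochondrial ribosomal proteins rose in 3 and fell in 6 of 76 (3.95% and 7.89%, median 0.00), oxidative phosphorylation subunits rose in 5 and fell in 9 of 88 (5.68% and 10.2%, median -0.07), and splicing factors rose in 4 and fell in 6 of 106 (3.77% and 5.66%, median 0.03). Of 43 proteasome genes, 10 rose and 4 fell (23.3% and 9.30%, median 0.12), and 3 of the 4 falls were in the proteolytic subunit genes Psmb8, Psmb10 and Psmb5. Psmb8 and Psmb10, the immunoproteasome subunits, went from 6.19 to 1.98 FPKM (-1.65 ± 0.43) and from 7.34 to 4.57 FPKM (-0.68 ± 0.35). Psmc2, a regulatory ATPase, rose from 28.2 to 50.6 FPKM (0.84 ± 0.27). Of 58 lysosomal genes, 8 rose and 17 fell (13.8% and 29.3%, median -0.15, which is 0.39 when scaled outside globin genes). Psap, prosaposin, fell from 69.8 to 30.9 FPKM (-1.17 ± 0.30), and Lgmn, the protease legumain, rose from 5.76 to 21.9 FPKM (1.93 ± 0.30). The list shares genes such as Cd68, which fell from 12.8 to 6.49 FPKM (-0.97 ± 0.32), with macrophages, whose part was not tested.

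Of 54 DNA replication genes 1 rose and 5 fell (1.85% and 9.26%, median -0.13, which is 0.40 when scaled outside globin genes), and of 48 mitosis genes 4 rose and 5 fell (8.33% and 10.4%, median -0.12, which is 0.41 on that scale). Mki67, the proliferation marker Ki-67, stood at 469 and 448 FPKM (-0.06 ± 0.63), and Pcna, the replication clamp, at 226 and 192 FPKM (q of 0.357). Orc1, of the origin recognition complex, rose from 5.67 to 10.3 FPKM (0.86 ± 0.31). Of 62 clustered histone genes, 32 fell and 5 rose (8.06% and 51.6%, median -0.71). Hist1h4k fell from 195 to 28.0 FPKM (-2.80 ± 0.18) and Hist1h3i from 457 to 75.3 FPKM (-2.60 ± 0.20), while Hist1h2ak rose from 926 to 1482 FPKM (0.68 ± 0.16) and Hist1h2af from 174 to 337 FPKM (0.95 ± 0.18). In KOb the latter genes stood at 551 and 70.7 FPKM, below the control. Near-identical histone genes share reads, and their transcripts mostly lack a poly(A) tail, so their level depends on how the library captures RNA.

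Of 44 genes of TRIM28 and its heterochromatin partners, 3 rose and 6 fell, Trim28 included (6.82% and 13.6%, median -0.14, which is 0.39 when scaled outside globin genes). Setdb1, the methyltransferase that TRIM28 recruits, rose from 1.96 to 9.90 FPKM (2.34 ± 0.55), Trim24, a paralog of Trim28, from 5.92 to 23.6 FPKM (2.0 ± 0.30), and Chd3, a remodeller of the NuRD complex, from 1.48 to 3.42 FPKM (1.21 ± 0.34). Cbx3, heterochromatin protein 1 gamma, fell from 9.09 to 3.78 FPKM (-1.27 ± 0.35) and stood at 8.85 FPKM in KOb. Ehmt2, the H3 lysine 9 methyltransferase G9a, fell from 2.56 to 1.1 FPKM (-1.23 ± 0.42). Dnmt1, the maintenance DNA methyltransferase, stood at 45.6 and 41.2 FPKM and was not called.

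Zinc finger genes were taken by the name Zfp, whether or not they encode the KRAB proteins that bring TRIM28 to DNA. They rose in 13 and fell in 11 of 211 tested, which is 6.16% and 5.21% against 7.99% and 14.1% of all tested genes (median 0.02). Zfp954 rose from 0.216 to 1.19 FPKM (2.46 ± 0.89) and Zfp777 fell from 1.41 to 0.378 FPKM (-1.90 ± 0.62). Of 18 imprinted genes, which TRIM28 is known to guard in the early embryo, 1 rose and 1 fell (5.56% and 5.56%, median -0.05, which is 0.48 when scaled outside globin genes). Zrsr1 rose from 10.1 to 16.8 FPKM (0.73 ± 0.34), and Cd81 fell from 37.8 to 24.3 FPKM (-0.63 ± 0.30).

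Of 49 interferon response genes, 3 rose and 9 fell (6.12% and 18.4%, median -0.26, which is 0.28 when scaled outside globin genes). Igtp, an interferon-induced GTPase, rose from 8.09 to 24.8 FPKM (1.62 ± 0.30) and Isg15, a ubiquitin-like modifier, from 109 to 211 FPKM (0.95 ± 0.23). Ifi27l2a fell from 25.9 to 2.21 FPKM (-3.55 ± 0.48), Ifitm3 from 244 to 140 FPKM (-0.80 ± 0.21) and the nuclease gene Isg20 from 1461 to 954 FPKM (-0.62 ± 0.32). Immune cells express many of these genes too, and their part in the falls was not tested. Rsad2, viperin, stood at 202 and 206 FPKM. The classical MHC class I genes H2-K1 (51.9 and 63.7 FPKM) and H2-D1 (31.9 and 40.2 FPKM) and the light chain gene B2m (494 and 636 FPKM) were not called. Of 18 genes in the class I list, 6 fell (0% and 33.3%, median -0.21, which is 0.33 when scaled outside globin genes). Those falls include the immunoproteasome genes Psmb8 and Psmb10, which the list also holds.

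Called genes often lay beside each other. With tested genes ordered along the chromosomes, the next neighbour of a gene that rose had risen in 120 of 858 cases (14.0%, against 7.99% of all tested genes), and the next neighbour of a gene that fell had fallen in 304 of 1512 cases (20.1%, against 14.1%). There were 68 runs of at least 3 neighbours called in the same direction, 19 of rises and 49 of falls, and the longest held 7 genes of the histone cluster of chromosome 13. Some runs are families that share sequence, and overlapping genes share reads.

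The stefin A genes of chromosome 16, which encode cysteine protease inhibitors of myeloid cells, rose in 6 and fell in 0 of 7 (85.7% and 0%, median 3.30, which is 2.81 with a pseudocount of 1). Stfa1 went from 6.74 to 53.1 FPKM (2.98 ± 0.28), Stfa2l1 from 7.03 to 57.4 FPKM (3.03 ± 0.28), Stfa3 from 3.64 to 35.8 FPKM (3.30 ± 0.36) and BC100530 from 2.55 to 41.2 FPKM (4.01 ± 0.41). Of the granulocyte markers, 6 of 13 fell and 2 rose, azurophil granule genes rose in 6 of 16, and the part of granulocytes in this result was not tested. The apolipoprotein L genes of chromosome 15 rose in 3 and fell in 1 of 5 (60% and 20%, median 1.59, which is 0.80 with a pseudocount of 1). Apol11b went from 83.0 to 251 FPKM (1.59 ± 0.28), Apol11a from 2.01 to 12.3 FPKM (2.61 ± 0.42) and Apol10a from 0.284 to 1.24 FPKM (2.13 ± 0.69). The Schlafen genes of chromosome 11, regulators of leukocyte growth, fell in 4 and rose in 1 of 8 (12.5% and 50%, median -0.62, which is -0.08 when scaled outside globin genes and -1.63 over the 5 with at least 1 FPKM), with Slfn4 going from 11.05 to 1.64 FPKM (-2.75 ± 0.34) and Slfn2 from 5.55 to 1.6 FPKM (-1.80 ± 0.43). On chromosome 13, Fam159b lay in a run with Cwc27, which rose from 1.99 to 5.10 FPKM (1.36 ± 0.39), and Srek1ip1, which rose from 2.30 to 10.8 FPKM (2.23 ± 0.37). On chromosome 17, Glo1, the glyoxalase that detoxifies methylglyoxal, rose from 59.7 to 133 FPKM (1.16 ± 0.32). Next in its run came 1700097N02Rik, which rose from 1.58 to 24.4 FPKM (3.96 ± 0.48). Dnahc8, a dynein heavy chain, followed and rose from 0.314 to 1.62 FPKM (2.37 ± 0.38). The lipoprotein genes of chromosome 7 fell together, with Apoe, a lipid carrier of macrophages among other cells, going from 30.8 to 15.2 FPKM (-1.02 ± 0.27) and Apoc2 from 3.01 FPKM to a value listed as 0. A run of hair keratin-associated genes on chromosome 16, Krtap8-2, Krtap22-2 and Krtap20-2, was called higher with all members listed at 0 in FFa and below 1 FPKM in KOa. Near-identical members of the stefin A and apolipoprotein L families share reads, so the split within each family is uncertain.

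**Figure D5:**
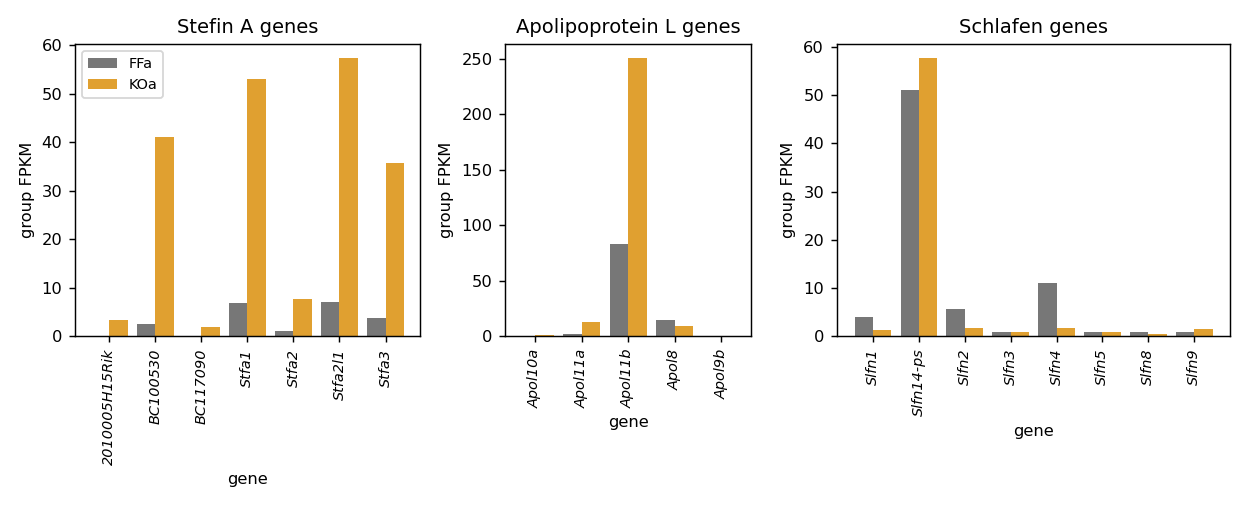
Group FPKM of the tested stefin A, apolipoprotein L and Schlafen genes in FFa (grey bars) and KOa (ochre bars), on linear axes from 0. The KOa bar exceeds the FFa bar for the stefin A genes, and Apol11b reaches 251 FPKM, while Slfn4 drops from 11.05 to 1.64 FPKM.

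Many genes of other blood cells fell. Of 33 B lineage genes, 27 fell and 0 rose, which is 81.8% lower against 14.1% of all tested genes (median -2.80, which is -1.48 with a pseudocount of 1), and all 10 of the B cell markers used to check the sort fell. The summed level of the whole list changed far less, at 3750 FPKM in FFa and 3035 FPKM in KOa. Most of that sum lay outside the 10 markers, which summed to 240.1 and 22.4 FPKM. A sum is set by the most abundant members, so it does not describe the typical member. Vpreb3, of the pre-B cell receptor, went from 104 to 2.74 FPKM (-5.24 ± 0.42), Ebf1, the master factor of the lineage, from 8.36 to 0.709 FPKM (-3.56 ± 0.51) and Pou2af1, a B cell coactivator, from 14.8 to 0.952 FPKM (-3.96 ± 0.44). None of these markers was at 0 in either group. Of 12 dendritic cell genes, 6 fell and 0 rose (0% and 50%, median -1.995, which is -0.55 with a pseudocount of 1), with Irf8 going from 7.16 to 0.964 FPKM (-2.89 ± 0.42). Of 14 MHC class II presentation genes, 8 fell and 0 rose (0% and 57.1%, median -0.86), with H2-Eb1 going from 13.3 to 3.98 FPKM (-1.75 ± 0.33).

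Of 33 monocyte and macrophage genes, 18 fell and 0 rose (0% and 54.5%, median -0.82). F13a1 went from 4.79 to 0.318 FPKM (-3.92 ± 0.60) and Emr1, the macrophage antigen F4/80, from 2.12 to 0.755 FPKM (-1.49 ± 0.48). The summed level of 12 macrophage and monocyte markers was 154 FPKM in FFa and 112 FPKM in KOa. Of 23 T and NK cell genes, 6 fell and 1 rose (4.35% and 26.1%, median -0.84), with Il7r going from 2.1 to 0.310 FPKM (-2.76 ± 0.64). Among 24 chemokines and chemokine receptors, 9 fell and 1 rose (4.17% and 37.5%, median -1.09).

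Neutrophil genes known to be made late and early in the lineage gave different counts, a difference that was not tested. Of 29 late granule genes, 16 fell and 3 rose (10.3% and 55.2%, median -0.73). Ngp went from 921 to 103 FPKM (-3.16 ± 0.26), Camp, cathelicidin, from 1395 to 347 FPKM (-2.01 ± 0.21) and Lyz2, lysozyme, from 284 to 49.7 FPKM (-2.52 ± 0.25), and the 3 that rose were the stefins Stfa1, Stfa2 and Stfa3. Not all late genes were called: S100a8 stood at 34935 and 14822 FPKM (q of 0.106) and Lcn2 at 1150.5 and 895 FPKM (q of 0.166). Azurophil granule genes of early neutrophil precursors rose in 6 and fell in 2 of 16 (37.5% and 12.5%, median 0.50). Mpo, myeloperoxidase, went from 8.15 to 21.7 FPKM (1.41 ± 0.29), Ctsg, cathepsin G, from 3.35 to 15.9 FPKM (2.24 ± 0.36) and Ms4a3 from 2.51 to 9.14 FPKM (1.86 ± 0.40). These genes stood at 27.3, 20.2 and 12.97 FPKM in KOb.

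Of 23 megakaryocyte and platelet genes, 6 rose and 6 fell (26.1% and 26.1%, median -0.01, which is 0.53 when scaled outside globin genes and -0.45 over the 12 with at least 1 FPKM, of which 4 rose and 6 fell). Pf4, platelet factor 4, went from 3.85 to 22.9 FPKM (2.57 ± 0.36), Gp1ba from 1.19 to 5.88 FPKM (2.30 ± 0.41) and Itga2b, the integrin CD41, from 1.04 to 3.76 FPKM (1.85 ± 0.40), while Fli1, a factor of the lineage, fell from 4.26 to 2.42 FPKM (-0.82 ± 0.35). Of 17 mast cell, basophil and eosinophil genes, 5 rose and 6 fell (29.4% and 35.3%, median -0.44, which is 0.10 when scaled outside globin genes), with Prss34, a basophil protease, going from 13.8 to 1.95 FPKM (-2.82 ± 0.43) and Cpa3, a mast cell protease, from 2.31 to 4.26 FPKM (0.88 ± 0.41). Summed over the markers used to check the sort, the level was 38.7 FPKM in FFa and 70.1 FPKM in KOa for 10 megakaryocyte genes, 40.3 and 34.3 FPKM for 8 mast cell, basophil and eosinophil genes (1 of them at 0 in FFa), 106 and 39.6 FPKM for 7 dendritic cell genes and 24.3 and 16.7 FPKM for 8 T and NK cell genes. The part of such cells in the changes of the other gene groups was not tested.

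Some genes that fell in KOa stood near the control level in the more fully deleted cells. In the test of KOb against KOa, 16.2% of 10468 genes were called in the authors' deposited table. Rps14 stood at 276 FPKM in KOb, against 283 in FFa and 104 in KOa, Rps23 at 349 FPKM, and Psmb5, a proteolytic proteasome subunit, at 17.7 FPKM against 13.1 and 5.95. Atp6v0c, a proton pump subunit, stood at 7.80, 1.52 and 10.1 FPKM in FFa, KOa and KOb, and Rbm3, a cold-induced RNA-binding protein, at 27.9, 9.96 and 25.2 FPKM. These genes were chosen after their values were seen. For the rises, the cholesterol gene Fdps stood at 19.1 FPKM in KOb, the metallothionein gene Mt1 at 178 FPKM and Cish at 10.4 FPKM, all above their FFa values. The gate of KOb is TER119-negative, so deletion and sort cannot be told apart in these values.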

How the data were processed

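RNA of sorted bone marrow erythroblasts was sequenced in 9 libraries, of which the 6 of FFa and KOa are compared here. The labels' protocols name column purification with a DNase step and, for libraries of total RNA, NuGEN's Encore Complete system. The submitters' processing notes list the build mm10 and the tools Cuffdiff 2.1.1, Bowtie2 2.1.0 and TopHat2 2.0.8b. How strand was used, and the gene annotation, filters and scaling, are not given in the sources. Reads of overlapping and antisense genes therefore cannot be told apart. FPKM values, 1 per gene and group, were deposited by the authors. The log2 ratio of these FPKM, without a pseudocount, is the authors' deposited value as well. It departs by over 0.01 from the ratio of the FPKM in 6 tested genes. The authors also deposited a test statistic (a score for that ratio), a p-value and a q-value per gene. Locus starts were raised by 1 base to count from 1.

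From these values the called genes (q below 0.05), implied standard errors, list counts and medians, and runs of neighbours were computed with Python 3.11.15, pandas 2.3.3 and numpy 2.4.6. The counting steps were tested on simulated data. Genes were named by a rule: Trim28, the 10 largest and 10 best determined changes in each direction, the 10 of largest FPKM difference, genes crossing between below 0.5 and at least 5 FPKM, up to 5 called members of each list, and members of runs. Some genes that the rule would name are not reported here. Further members with high levels or known roles were named after their values were seen. The members and the 52 lists were chosen with earlier results of these data known, and some lists share genes. RefSeq promoters were matched by symbol. Alternatives were another adjustment or reading of the statistic, FPKM minimums of 1 and 5, a log2 size of 1, a pseudocount of 1, and other scalings.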

Additional observations from a re-analysis of the deposited data

How the results depend on the processing

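The deposited table held group values only, so no library could be left out. No paired analysis was possible because the groups carry replicate numbers in the titles but the values are pooled over them. Of the called genes in the main reading (860 higher, 1516 lower), 501 and 682 had at least 5 FPKM in the higher group and 364 and 786 a log2 ratio of at least 1 in size. A standard normal reading of the statistic gave 280 higher and 555 lower. On that reading, centring on the median of expressed genes gave 310 and 505, and rescaling outside globin genes gave 1431 and 229. That rescaling also moved the median log2 ratio of all tested genes from -0.08 to 0.46, and the number of the 52 lists with a median above 0 from 19 to 43. It adds the same 0.54 to every gene, which is how the direction of these counts turns. Adjusting over this comparison alone (860 and 1514) and an FPKM minimum of 1 (769 and 1363) gave counts within 1.5 times the main ones. Leaving out genes at 0 in either group gave 826 and 1510, and scaling outside globin and small RNA genes gave a median of 0.25. Both of these were chosen after seeing the data. The list medians that moved by more than the median standard error of their genes with a pseudocount of 1 were those of stefin A (2.81), apolipoprotein L (0.80), B lineage (-1.48) and dendritic cell genes (-0.55), and over genes with at least 1 FPKM those of Schlafen (-1.63) and megakaryocyte genes (-0.45). No called log2 ratio of a gene named here changed sign with a pseudocount of 1 or with the rescaling outside globin genes.

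Depth per library is unknown, and the implied standard error was largest for genes below 0.5 FPKM.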

Other observations

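Of the called genes, Hist1h2ak had the largest rise in FPKM, from 926 to 1482 FPKM (0.68 ± 0.16). It is a histone gene, of a family that shares reads. S100a6, a calcium-binding protein of dividing and stressed cells, went from 231 to 483 FPKM (1.06 ± 0.22), and Ube2c, the conjugating enzyme of the anaphase-promoting complex, from 385 to 568 FPKM (0.56 ± 0.24). The transcript 5730469M10Rik went from 602 to 956 FPKM (0.67 ± 0.30) and 2010107E04Rik from 1139 to 1693 FPKM (0.57 ± 0.15). Among the absolute falls, the histone gene Hist1h2bb went from 10017 to 3936 FPKM (-1.35 ± 0.22), a member of a family that shares reads. The keratin-associated and other genes listed at 0 in FFa carry no ratio.

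By chromosome, the share of tested genes that rose ran from 5.32% on chromosome 9 to 10.6% on chromosome 4, and the share that fell from 10.3% on chromosome 12 to 20.3% on chromosome 13, where the large histone cluster lies. These shares are given as values and were not tested.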
